A study of Mus musculus with 6 samples.

Results

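*Gdf15*, *Fgf21*, *Atf4*, *Atf5*, *Ddit3*, *Cebpb*, *Cebpg* and *Ppp1r15a* are the transcription factors, the phosphatase subunit and the secreted mitokines of the integrated stress response. They were taken as the rows of the UMI count table that carry these symbols, and all 8 had a row among the 17145 genes listed. Each library holds the RNA of Atf3-positive areas in fresh-frozen heart sections of FS6KD mice, chosen by anti-Atf3 immunostaining and released by ultraviolet light (photo-isolation chemistry), and was counted by unique molecular identifiers (UMIs), each standing for 1 captured mRNA molecule. The comparison was of 3 areas with high Atf3 signal against 3 areas with low signal inside Atf3-positive clusters, and asked how areas with more Atf3 differ from areas with less.

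Both groups carried the same gene-trap knockdown of *Ndufs6*, a subunit of respiratory complex I, which is strongest in the heart, on a mixed genetic background. No wild-type heart is among these libraries, so the values compare areas within a diseased heart and not disease with health. All 6 libraries are labelled as female heart and as cardiomyocytes, with no age given for them. The study counts 3 biological replicates per group, and whether a high and a low area came from 1 heart is not stated. The areas were picked on Atf3 protein, so *Atf3* is no finding between them.

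The integrated stress response begins when a kinase phosphorylates the initiation factor eIF2, which lowers general protein synthesis while the mRNA of *Atf4* is translated more. ATF4 and its partners then switch on genes for amino acid supply, redox balance and chaperones, and a phosphatase complex that contains the product of *Ppp1r15a* closes the loop. In heart and skeletal muscle with a defective respiratory chain this response is well known, and GDF15 and FGF21 are the hormones through which such a tissue signals to the rest of the body.

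The libraries held 184872, 81117 and 210588 UMIs in Atf3 high against 171536, 125522 and 81917 in the low areas. Levels below are CPM, the UMIs scaled to a normalized library size of 1000000, where 1 UMI was worth between 4.66 CPM (Atf3 high replicate 3) and 13.6 CPM (Atf3 low replicate 3). Because a UMI marks 1 molecule at its 3′ end, gene length does not enter the level, and CPM can be set side by side between genes as captured molecules. A gene without a UMI in a library is limited there to the level of 3 UMIs, from 14.0 to 40.9 CPM, by counting error alone. *Ndufs6* itself had 2, 0 and 3 UMIs in Atf3 high and none in Atf3 low, too few to check the knockdown.

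The library Atf3 high replicate 2 went against its label female. It held 8 UMIs of *Ddx3y* and 8 of *Eif2s3y*, both Y-linked, and none of *Xist*, the RNA of the inactive X chromosome. The other libraries held between 3 and 26 UMIs of *Xist*, and their Y-linked genes came to no more than 1 UMI each. *Kdm5d* had no row in the table and was not analysed here. The log2 differences of the members tested and the medians of the lists are therefore also given without the library labelled Atf3 high replicate 2.

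Of the 8 genes, 6 reached the 10 UMIs over all libraries that were asked for a test, and *Ddit3* (8 UMIs) and *Fgf21* (1 UMI) did not. edgeR called 0 of the 6 at an adjusted p of 0.05, and 1, *Gdf15*, had an unadjusted p below 0.05, with a higher level in Atf3 high. DESeq2 and limma-trend also called 0 of the 6 and put 1 below an unadjusted p of 0.05. With library size alone edgeR put 2 there, *Atf5* being the other, and with the replicate number as a block also 2, of which *Gdf15* was then called. Over all 7665 genes tested, 0.0391% were called as higher and 0.0522% as lower in Atf3 high, while 3.55% were higher and 2.24% lower at an unadjusted p below 0.05. With library size alone as the scaling, 4 genes were called as higher and 3 as lower, where TMM gave 3 and 4, and at an unadjusted p below 0.05 the split was 410 higher and 104 lower, where TMM gave 272 and 172. Without the library at odds with its label 1 gene was called. The comparison thus made few calls anywhere, with a biological coefficient of variation of 53.6%.

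Among the ligands, *Gdf15* stood at 386, 434 and 51.2 CPM in Atf3 high and at 60.6, 50.1 and 40.9 CPM in Atf3 low. It is the stress hormone that reaches the hindbrain and lowers appetite, and it was counted here by 76, 36 and 11 UMIs against 9, 6 and 3. Atf3 high replicates 1 and 2 lay far above every other library, whereas replicate 3 lay within the narrow range of Atf3 low and below its replicate 1, so that the groups overlapped. The mean was 291 ± 209 CPM in Atf3 high and 50.5 ± 9.90 CPM in Atf3 low (SD, n = 3), a ratio of 5.75. The fitted log2 difference was 2.44 (SE 0.62), rank 11 of all genes by p, with an adjusted p of 0.223, and 2 of 3 Atf3 high libraries were above every Atf3 low library. An exact two-sided permutation test of log2(CPM + 4) gave p = 0.2, where 3 against 3 cannot go below 0.1.

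The *Gdf15* result rested on single libraries in both directions. Without Atf3 high replicate 3 the log2 difference was 2.95 with an adjusted p of 0.0179, and it then passed the threshold. Without Atf3 high replicate 2, the library at odds with its label, it was 2.05 with an adjusted p of 0.929. With the replicate number as a block it was 2.36 with an adjusted p of 0.0144, which passed the threshold too, though the numbers were not taken as pairs. Over all the alternatives tried the adjusted p of *Gdf15* ran from 0.0144 to 1.00.

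A measure inside each library does not depend on how the libraries were scaled. *Gdf15* made up 33.0%, 41.4% and 8.80% of the UMIs of the 8 genes in Atf3 high replicates 1, 2 and 3 (exact 95% binomial intervals 27.0 to 39.5%, 30.9 to 52.4% and 4.48 to 15.2%). In Atf3 low it made up 9.89%, 9.52% and 9.68%, with intervals of 4.62 to 17.9%, 3.58 to 19.6% and 2.04 to 25.8%. The first 2 of these shares are above the intervals of all the others, while Atf3 high replicate 3 could not be told from Atf3 low by counting error. In Atf3 high replicates 1 and 2 there were 1.36 and 2.12 captured molecules of *Gdf15* for each of *Atf4*, and in the other libraries between 0.244 and 0.346.

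**Figure D1:**
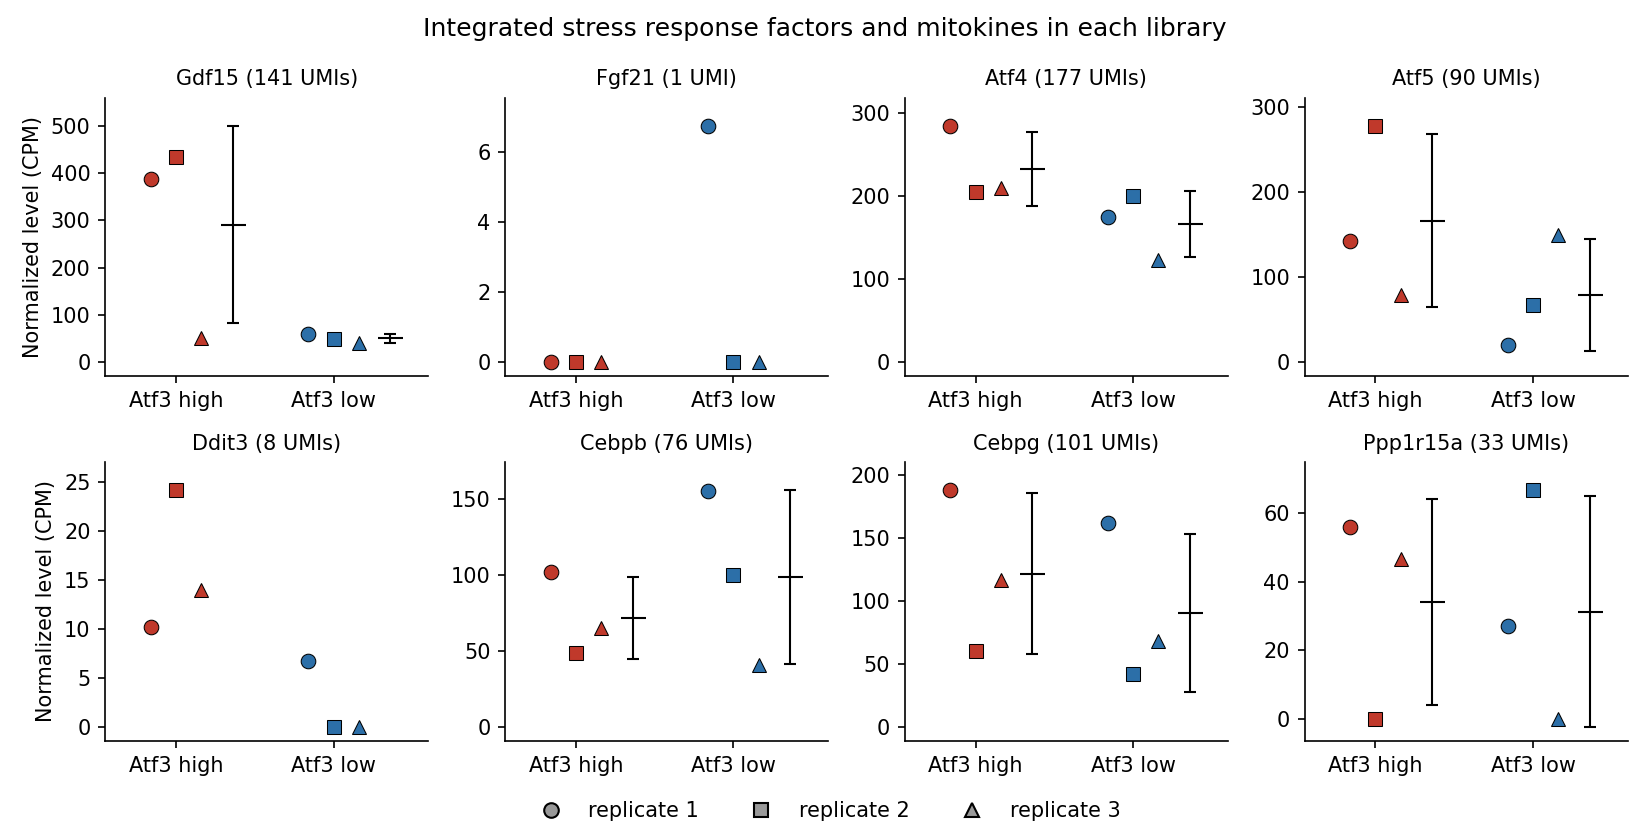
Normalized level (CPM, linear axis, a separate scale for each gene) of the 8 genes in the 3 Atf3 high libraries (red) and the 3 Atf3 low libraries (blue), with the UMIs over all libraries in each title. Marker shapes give the replicate number, bars give the mean ± SD (n = 3) of the 6 genes tested, and only Atf3 high replicates 1 and 2 lie apart for *Gdf15*, at 386 and 434 CPM against 40.9 to 60.6 CPM in every other library.

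The summed level of 7 fibroblast markers was 5188, 2788 and 1099 CPM in Atf3 high and 2574, 1493 and 531 CPM in Atf3 low, and all 7 had a higher fitted level in Atf3 high, though none was called in this fit (2 were with the replicate number as a block, *Col1a2* and *Col3a1*). *Col3a1*, a fibrillar collagen and the most abundant of them, was at 1601, 833 and 298 CPM against 876, 317 and 54.5 CPM. The 2 libraries highest in *Gdf15* were also the 2 highest in the sum, but in only 2 of the 7 markers taken singly, *Col1a2* and *Postn*, as Atf3 low replicate 1 was above Atf3 high replicate 2 for *Col3a1*.

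The sum for the muscle cells was lowest in those 2 libraries. The summed level of 7 cardiomyocyte markers was 19898, 20517 and 38065 CPM in Atf3 high and 41213, 43339 and 54286 CPM in Atf3 low. All 7 were lower in Atf3 high and 1, *Myh6*, the cardiac myosin heavy chain, was called. That call went when Atf3 high replicate 1 or 2, or Atf3 low replicate 1 or 3, was left out, and a replicate block called *Actc1* as well. *Myl2*, the ventricular myosin light chain and most abundant of the list, was at 4695, 6831 and 9870 CPM against 7911, 9118 and 14014 CPM. The part of the cell makeup in the *Gdf15* difference was not tested, and in an area of tissue fewer cells of a type and less RNA per cell cannot be told apart.

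Other cell types showed no such order. The summed level of 7 macrophage markers was 320, 266 and 130 CPM in Atf3 high and 236, 350 and 232 CPM in Atf3 low, led by *Lyz2*, with 2 of 6 tested higher. The 6 endothelial markers summed to 1352, 990 and 1225 CPM against 1375, 1160 and 817 CPM, led by *Fabp4*, with 4 of 6 higher. The 6 mural cell markers summed to 666, 266 and 666 CPM against 532, 342 and 163 CPM, led by *Rgs5*, with 5 of 5 tested higher. Erythrocyte markers, led by *Hbb-bs*, came to 40.6, 157 and 32.6 CPM against 128, 91.8 and 0 CPM, with 2 of 5 in the table, of which *Hba-a2* was at 0 in Atf3 high. None of these lists held a called gene, and at least 1 defining marker of each type other than erythrocytes was counted in every library.

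**Figure D2:**
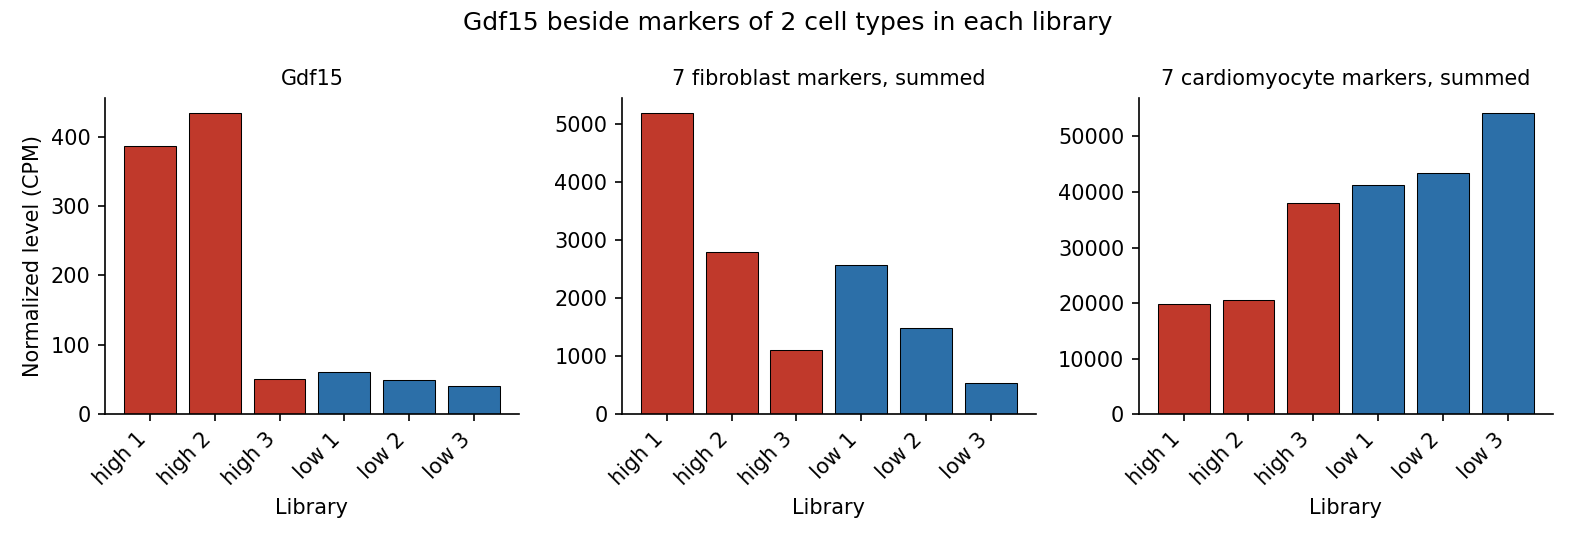
Normalized level (CPM, linear axis from 0) in each library of *Gdf15* (left), of 7 fibroblast markers summed (middle) and of 7 cardiomyocyte markers summed (right), with Atf3 high in red and Atf3 low in blue. The bars of Atf3 high replicates 1 and 2 are the tallest for *Gdf15* (386 and 434 CPM) and for fibroblast markers (5188 and 2788 CPM) and the shortest for cardiomyocyte markers (19898 and 20517 CPM).

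*Fgf21*, a hormone of fasting and mitochondrial stress that liver and stressed muscle release, was counted once, in Atf3 low replicate 1. Its level was 6.74 CPM there and 0 in the other 5 libraries. Over the pooled Atf3 high libraries 0 UMIs allow up to 7.46 CPM, the upper end (3.69 UMIs) of the exact 95% Poisson interval. The level of 3 UMIs, used above for single libraries, would be 6.07 CPM there. The 1 UMI of Atf3 low corresponds to 2.93 CPM (exact Poisson interval 0.0741 to 16.3). A difference in *Fgf21* was not detectable at this depth, and the pooled bound puts it below the lowest *Gdf15* level of any library.

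Few receptors of the ligands were in the table. *Gfral* and *Ret*, through which GDF15 signals, and *Klb*, *Kl* and *Fgfr4*, which serve FGF21 and related hormones, had no row in the table and were not analysed here. *Fgfr1*, the FGF receptor that pairs with beta-klotho, had 8, 1 and 11 UMIs in Atf3 high against 1, 3 and 1 in the low areas, and *Fgfr3* had 3, 0 and 6 against 3, 0 and 0. The groups overlapped for both, the log2 differences were 1.25 (SE 1.08) and 0.94 (SE 1.43), and edgeR, DESeq2 and limma-trend called 0 of these 2. Their median was 1.09, or 1.30 with library size alone and 1.44 without Atf3 high replicate 2. *Fgfr2*, with 2 UMIs, was not tested.

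*Atf4*, the factor at the centre of the response, was the most counted of the 8 genes, with 177 UMIs. It stood at 285, 205 and 210 CPM in Atf3 high and at 175, 200 and 123 CPM in Atf3 low. Every Atf3 high library was above every Atf3 low library, but only by 205 against 200 CPM at the closest pair, a gap smaller than the worth of 1 UMI in either library, and with RLE factors in place of TMM the groups overlapped. *Atf4* was 1 of the 6 genes tested whose groups did not overlap in this direction, against 7.07% of all genes tested, and none of the 6 lay apart in the other direction, against 3.89% of all. The means were 233 ± 44.6 and 166 ± 39.6 CPM (SD, n = 3), with an exact permutation p of 0.1, the smallest possible. The log2 difference was 0.48 (SE 0.48), adjusted p 0.996, and 0.54 without Atf3 high replicate 2. ATF4 is set mainly by translation and protein stability, which these counts do not measure.

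*Atf5*, the relative of *Atf4* that takes part in the mitochondrial unfolded protein response, stood at 142, 278 and 79.2 CPM in Atf3 high and at 20.2, 66.7 and 150 CPM in Atf3 low. The groups overlapped, since Atf3 low replicate 3 lay above 2 of the Atf3 high libraries. Its means of 166 ± 101 and 78.9 ± 65.7 CPM (SD, n = 3) gave a log2 difference of 1.13 (SE 0.64), adjusted p 0.964, and an exact permutation test gave p = 0.3. The highest value came from the library at odds with its label, and without it the log2 difference was 0.58. *Atf5* was also moved by single Atf3 low libraries, to 0.54 without replicate 1 and to 1.88 without replicate 3.

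*Ddit3*, which encodes CHOP, the factor tied to cell death after prolonged stress, had too few UMIs to test. It was counted by 2, 2 and 3 UMIs in Atf3 high against 1, 0 and 0 in the low areas. Each Atf3 high library was above each Atf3 low library, yet all were at or near the level of a single UMI. Pooled over a group, the level was 14.2 CPM (exact Poisson interval 5.69 to 29.2) in Atf3 high and 2.93 CPM (0.0741 to 16.3) in Atf3 low. Their ratio of 4.84 had a counting interval of 0.622 to 218, so the direction was not settled by these counts.

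The C/EBP factors, which pair with ATF4 on its target genes, gave no common order. *Cebpb* stood at 102, 48.3 and 65.2 CPM in Atf3 high and at 155, 100 and 40.9 CPM in Atf3 low. Its libraries interleaved, and it was the single member with a lower fitted level in Atf3 high, at a log2 difference of −0.47 (SE 0.63), adjusted p 0.996, with an exact permutation p of 0.8. *Cebpg* stood at 188, 60.3 and 116 CPM against 162, 41.7 and 68.1 CPM, again with overlap. Its log2 difference was 0.43 (SE 0.60), adjusted p 0.996, with an exact permutation p of 0.5, and it came to −0.015 without Atf3 high replicate 1. Without Atf3 high replicate 2 the values were −0.31 for *Cebpb* and 0.69 for *Cebpg*.

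*Ppp1r15a*, which encodes GADD34, the stress-induced subunit that brings a phosphatase to eIF2, had 11, 0 and 10 UMIs in Atf3 high against 4, 8 and 0 in the low areas. It was absent from the counts of 1 library of each group, the smallest of that group, where 3 UMIs would be 36.2 and 40.9 CPM. Where it was counted it stood at 55.9 and 46.6 CPM in Atf3 high and 27.0 and 66.7 CPM in Atf3 low, so the groups overlapped. The log2 difference of 0.17 (SE 0.98), adjusted p 0.996, had no settled sign, with −0.29 without Atf3 low replicate 3, 1.13 without Atf3 low replicate 2 and 0.60 without Atf3 high replicate 2.

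Summed over the 8 genes, the level was 1169, 1050 and 582 CPM in Atf3 high and 613, 526 and 422 CPM in Atf3 low. Without *Gdf15* the sum was 783, 616 and 531 CPM against 553, 476 and 381 CPM, or 643 ± 128 and 470 ± 85.8 CPM (SD, n = 3). In both sums Atf3 high replicates 1 and 2 were the highest libraries and Atf3 high replicate 3 lay below Atf3 low replicate 1. *Gdf15* was the most counted of the set in Atf3 high replicates 1 and 2, followed by *Atf4* in replicate 1 and by *Atf5* in replicate 2, while in the other libraries *Atf4* alone led, apart from Atf3 low replicate 3, where *Atf5* was counted by 11 UMIs and *Atf4* by 9. The median fitted log2 difference of the 6 genes tested was 0.45, against 0.11 over all genes tested, and without Atf3 high replicate 2 it was 0.59 against 0.11. With library size alone as the scaling these medians were 0.67 and 0.31, so about the same distance lay between them.

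The genes closest to *Gdf15* over the 6 libraries, among 1876 genes with at least 60 UMIs, were *Gm13889* (Pearson r of log2(CPM + 4) 0.986), *Rps24* (0.977) and *1110002E22Rik* (0.976). Those closest to *Atf4* were *Atn1* (0.982), *Dync1li1* (0.981) and *C3* (0.973). *Gm13889* was counted by 28, 16 and 5 UMIs in Atf3 high against 6, 3 and 2 in the low areas, and its 2 highest libraries in CPM were those of *Gdf15*. With 6 libraries and that many genes compared, values of r this high are a description of these libraries only.

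Upstream of the factors, 5 of the 11 genes listed for the eIF2 kinases and the phosphatase were tested. Of those tested, edgeR, DESeq2 and limma-trend called 0, with 0 at an unadjusted p below 0.05 by edgeR (1, *Dnajc3*, with library size alone). The kinases themselves, *Eif2ak1*, *Eif2ak2*, *Eif2ak3* and *Eif2ak4*, had 5, 7, 6 and 9 UMIs over all libraries and were not tested. *Eif2ak1* had 2, 1 and 2 UMIs in Atf3 high against 0, 0 and 0 in the low areas. Its 9.32 to 12.1 CPM in Atf3 high lay below the level of 3 UMIs in the low areas, 20.2 to 40.9 CPM. A difference in *Eif2ak1* was therefore not settled by these counts. *Eif2ak2* had 2, 2 and 0 UMIs against 1, 2 and 0, *Eif2ak3* 0, 0 and 4 against 2, 0 and 0, and *Eif2ak4* 5, 1 and 1 against 2, 0 and 0. *Dnajc3*, an inhibitor of the eIF2 kinase of the endoplasmic reticulum, had 10, 7 and 8 UMIs in Atf3 high against 4, 1 and 0 in the low areas, with no overlap and a log2 difference of 1.96 (SE 1.03). *Ppp1r15b*, the constitutive counterpart of *Ppp1r15a*, had 4, 3 and 6 UMIs against 3, 1 and 0. *Impact*, an inhibitor of the kinase GCN2, had 3, 0 and 5 UMIs against 14, 5 and 1, and the adaptor *Nck1* had 3, 0 and 3 against 4, 1 and 2. The list's median log2 difference was 0.15, or 0.36 with library size alone and 0.12 without Atf3 high replicate 2, and *Ppp1ca* had no row.

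For the subunits of eIF2 and of its exchange factor eIF2B, 4 of the 8 tested were higher and 4 lower, with a median of −0.053, or 0.17 with library size alone and −0.48 (3 higher, 5 lower) without Atf3 high replicate 2. The list had been drawn up with *Eif2a* and *Eif2d*, which are no subunits of these complexes, and with them the median of the 9 genes tested was −0.36. None was called by any of the 3 tools. *Eif2s2*, the beta subunit, had 97, 32 and 29 UMIs in Atf3 high against 38, 14 and 15 in the low areas (log2 difference 0.80, SE 0.49), and *Eif2s3x* had 3, 1 and 7 against 3, 2 and 0. *Eif2a*, an initiation factor separate from the eIF2 complex, had 2, 1 and 11 UMIs against 21, 12 and 2 and was the 1 gene of the list below an unadjusted p of 0.05 (−1.78, SE 0.80), though its groups overlapped. With library size alone *Eif2s2* was the gene below that p instead, as higher, and without Atf3 high replicate 2 no gene of the list was. *Eif2b3* had 3, 0 and 0 UMIs against 2, 6 and 0.

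The relay from stressed mitochondria to the eIF2 kinases, with the protease *Oma1* and its messenger *Dele1*, gave 6 higher and 4 lower of 10 genes tested, with a median of 0.14, or 8 higher and 2 lower with a median of 0.35 with library size alone, and 7 higher and 3 lower with a median of 0.18 without Atf3 high replicate 2. edgeR, DESeq2 and limma-trend called 0 of them, and 0 had an unadjusted p below 0.05. For this and the other lists, the background over all 7665 genes tested was 4233 higher and 3432 lower, with a median of 0.11. With library size alone that background was 4953 higher and 2712 lower, with a median of 0.31. *Oma1* had 6, 1 and 10 UMIs in Atf3 high against 3, 2 and 0 in the low areas, and the chaperone *Hspd1* had 49, 15 and 33 against 36, 11 and 6. *Yme1l1*, the protease that balances OMA1, stood at 61.0, 60.3 and 37.3 CPM against 135, 75.1 and 150 CPM, lower in every Atf3 high library (log2 difference −1.18, SE 0.65, adjusted p 0.927). *Clpp*, a matrix protease, was at 20.3, 0 and 69.9 CPM against 33.7, 50.1 and 54.5 CPM.

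Downstream are the known ATF4 targets. Of 28 listed, 27 had a row, and 24 of these had a higher mean level in Atf3 high (88.9%), where 57.3% of all genes in the table did. Of the 18 tested, 16 were higher and 2 lower, with a median log2 difference of 1.05, and 6 were higher and 1 lower at an unadjusted p below 0.05 (3.55% and 2.24% over all genes tested). With library size alone the median was 1.27, and 10 were higher and 1 lower at that p. edgeR called 0 of them at an adjusted p of 0.05, as did DESeq2 and limma-trend. Without the library at odds with its label 17 were tested, the median was 1.19, and 3 were higher and 1 lower at an unadjusted p below 0.05. The list was chosen with earlier results known and was not tested as a set, and the part of the cell makeup was not tested for it either.

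*Gars*, which charges tRNA with glycine, stood at 325, 193 and 107 CPM in Atf3 high and at 53.9, 41.7 and 54.5 CPM in Atf3 low. Its groups did not overlap, Atf3 high replicate 3 included, and its log2 difference was 2.05 (SE 0.60), adjusted p 0.462. *Chac1*, which degrades glutathione, had 27, 2 and 1 UMIs in Atf3 high against 0, 0 and 1 in the low areas, so its difference came almost wholly from 1 library. *Vldlr*, a lipoprotein receptor, went the other way with 86.4, 205 and 233 CPM against 391, 175 and 654 CPM (log2 difference −1.21, SE 0.49, adjusted p 0.738), and *Ddit4*, an inhibitor of mTORC1, was at 122, 96.5 and 163 CPM against 115, 184 and 191 CPM. *Aldh18a1* had no row in the table.

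Genes of the other branches of the endoplasmic reticulum stress response gave 12 higher and 4 lower of 16 tested, with a median of 0.35, 2 higher and 0 lower at an unadjusted p below 0.05, and none called by the 3 tools. With library size alone the median was 0.56 with 3 higher at that p, and without Atf3 high replicate 2 it was 0.33 with 1 higher, which was neither of the 2, *Ero1a* and *Creld2*. *Ero1a*, the oxidase that CHOP induces, had 20, 12 and 7 UMIs in Atf3 high against 5, 3 and 1 in the low areas (log2 difference 1.78, SE 0.82), and *Creld2*, a disulfide isomerase, had 9, 3 and 7 against 1, 1 and 0 (2.58, SE 1.25). *Ero1a* stood at 32.6 CPM in Atf3 high replicate 3, just below the 33.7 CPM of Atf3 low replicate 1. *Manf*, a secreted protein of the same response, went the other way without overlap, with 3, 1 and 1 UMIs against 7, 4 and 2 (−1.74, SE 1.13), and *Atf6*, a sensor of the stress, had 38, 4 and 28 UMIs against 40, 10 and 30.

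In the list drawn up for the other leucine zipper factors, 6 of 17 tested were higher and 11 lower. Its median of −0.16 became 0.041 with library size alone (9 higher, 8 lower) and −0.30 (15 tested) without Atf3 high replicate 2. The 6 higher genes include *Atf3*, on which the areas were picked. They also include *Cebpz*, which despite its symbol is no leucine zipper factor. *Atf2*, a stress kinase substrate that can pair with Atf3, was at 20.3, 36.2 and 0 CPM in Atf3 high and at 216, 41.7 and 300 CPM in Atf3 low, without overlap. The closest pair, replicate 2 of each group, was 3 against 5 UMIs, a gap in CPM smaller than the worth of 1 UMI in either library. The log2 difference of *Atf2*, −3.48 (SE 0.81), had an adjusted p of 0.0892 with edgeR and 0.0472 with DESeq2, where it was the 1 gene of the list called. It was also called with the replicate number as a block (0.00327), with no filter (0.0165) and without Atf3 low replicate 2 (0.0119), and over the alternatives tried its adjusted p ran up to 1.00. *Jund* had 53, 3 and 20 UMIs against 42, 49 and 11, *Cebpz* 4, 2 and 2 against 2, 0 and 0, and *Nfil3* 6, 1 and 4 against 1, 0 and 2. *Atf3* itself was at 254, 84.5 and 116 CPM against 236, 0 and 109 CPM (log2 difference 0.40, SE 0.65), and *Batf3*, *Cebpa*, *Mafk* and *Dbp* had no row.

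Immediate early genes, which *Atf3* often accompanies after acute injury or tissue handling, gave 7 higher and 7 lower of 14 tested. Their median was −0.19, or 0.030 with library size alone and −0.20 without Atf3 high replicate 2 (4 higher and 8 lower of 12 tested), and edgeR, DESeq2 and limma-trend called 0 of them, with 0 at an unadjusted p below 0.05 (1, *Myc*, with library size alone). *Myc* had 5, 10 and 1 UMIs in Atf3 high against 0, 1 and 1 in the low areas, and *Gadd45a* had 23, 6 and 7 against 7, 4 and 0. *Jun* had 21, 5 and 8 against 31, 12 and 2, and *Zfp36* had 2, 0 and 1 against 3, 7 and 0. *Fosb* had no row.

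In the GRCm38 build 4 of the 8 genes lie on chromosome 7, *Cebpg* (chr7:35046422-35056573), *Atf5* (chr7:44812256-44816658), *Ppp1r15a* (chr7:45522916-45526268) and *Fgf21* (chr7:45613886-45615490), all on the minus strand and all protein-coding. *Gdf15* (chr8:70629393-70632456, minus strand), *Ddit3* (chr10:127290774-127296288, plus strand), *Atf4* (chr15:80255184-80257541, plus strand) and *Cebpb* (chr2:167688915-167690418, plus strand) lie elsewhere. The last exon of *Ddit3* overlaps *Mars* on the opposite strand, that of *Ppp1r15a* overlaps *Tulp2*, and the single exon of *Cebpb* overlaps *Tmem189*. The overlap of *Cebpb* lies further from its 3′ end than the other 2. The setting used for strand in counting was not stated, so UMIs of *Ddit3* and *Ppp1r15a* could be shared with or lost to their opposite partners. Exons of *Ddit3* and *Cebpg* also overlap an entry on the same strand, away from the 3′ end. Opposite-strand overlaps of exons away from the 3′ end were also present for *Atf5* (with *Nup62* and *Il4i1*), *Cebpg* and *Ddit3*. *Gdf15*, *Fgf21* and *Atf4* overlap no other annotated gene, and no gene of the 8 has another copy at 95% identity over 200 bases, apart from that overlap of *Cebpb* with *Tmem189*.

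The promoters of the ligands are shown because the mitokines are read as ATF4 outputs, and because only *Gdf15* was counted in numbers. RefSeq entries (GRCm38.p6) gave 10 promoters for the 8 genes, read here over the 250 bases before each start and searched on both strands. The C/EBP-ATF response element TGATGNAA was found in 1 of them, that of *Fgf21*, and in 3.45% of all promoters. The shorter TGATG that it contains was in 2 of the 10, *Fgf21* and *Gdf15*, and in 34.5% of all promoters. The cAMP response element TGACGTCA was in 1, 12 bases before the start of *Ppp1r15a*, and in 1.55% of all. The shorter TGACG within it was in 4 of the 10, *Atf4*, *Cebpb*, *Fgf21* and *Ppp1r15a*, and in 17.8% of all. The AP-1 element TGANTCA was in 1, that of *Ddit3*, and in 6.75% of all. In the sequences below capitals mark TGATGNAA (*Fgf21*, chr7:45615491-45615740, minus strand) and TGATG (*Gdf15*, chr8:70632457-70632706, minus strand), each as its reverse complement. A match is a run of letters and no evidence of binding.
Fgf21: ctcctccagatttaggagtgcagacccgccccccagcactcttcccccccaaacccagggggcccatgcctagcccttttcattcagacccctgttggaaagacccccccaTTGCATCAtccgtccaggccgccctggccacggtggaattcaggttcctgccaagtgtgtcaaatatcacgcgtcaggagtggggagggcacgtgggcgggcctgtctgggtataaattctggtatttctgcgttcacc
Gdf15: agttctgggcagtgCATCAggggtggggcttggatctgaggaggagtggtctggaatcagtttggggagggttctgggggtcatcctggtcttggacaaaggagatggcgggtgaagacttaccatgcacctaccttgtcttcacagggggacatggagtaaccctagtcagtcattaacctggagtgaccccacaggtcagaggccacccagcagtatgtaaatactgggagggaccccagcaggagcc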

How the data were processed

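Photo-isolation chemistry with CEL-seq2 libraries gave 6 libraries, sequenced paired-end on a NovaSeq6000. Mapping by the authors used HISAT2 (version 2.1.0) and the GRCm38 build. The submitters' processing notes also name UMI-tools (version 1.0.0) and featureCounts (version 1.6.4). Each deposited value is a count of UMIs, not normalized. The annotation release, UMI length, strand setting and handling of multi-mapped reads are not given in the sources used here.

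Groups and replicate numbers came from the labels. Genes with at least 10 UMIs over the 6 libraries (7665) were scaled by TMM and tested in edgeR (version 4.0.16, R version 4.3.3) by its quasi-likelihood test with no covariate and Benjamini-Hochberg adjustment over all genes tested. CPM is UMIs per 1000000 after TMM scaling over those genes. SE is the log2 difference divided by the root of the F statistic. The exact permutation test was two-sided, on log2(CPM + 4). Intervals (95%, Poisson or Clopper-Pearson) cover counting error only, and group tests measure the spread between these areas. Symbols *Wars*, *Ero1l* and *Ero1lb* were matched by identifier to *Wars1*, *Ero1a* and *Ero1b*. Positions are from GENCODE vM21, where 17140 of 17145 identifiers were found. Copies were sought with BLAST+ (version 2.17.0).

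The members and gene lists were chosen with earlier results of these data known, so no list was tested as a set. Genes named are the members, *Atf3*, *Ndufs6*, in each pathway list the 2 of smallest p in each direction, any called and those without a row, the most abundant marker of each cell type, the 3 genes most like *Atf4* and *Gdf15*, and *Xist* with Y-linked genes. *Myh6*, *Actc1*, *Col1a2*, *Postn*, *Eif2d*, *Dele1*, *Fgfr2* and the kinases *Eif2ak1* to *Eif2ak4* are further names, chosen with their values in view. The test was tested on simulated data. Alternatives were DESeq2 (version 1.42.0), limma-trend (limma version 3.58.1, prior count 2), RLE factors, library size alone, no filter, filterByExpr, a replicate block, thinning to 81117 UMIs and leaving out each library.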

Additional observations from a re-analysis of the deposited data

How the results depend on the processing

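With 7 genes called in all, another tool or depth moved that count, to 12 with DESeq2 and to 4 after thinning, and leaving out 1 library gave between 0 (without Atf3 low replicate 1, with 477 genes at an unadjusted p below 0.05) and 11 (without Atf3 high replicate 3), and 1 gene was called when the library left out was replicate 1 or 2 of Atf3 high, or replicate 3 of the low areas. With the replicate number as a block 24 genes were called, and *Gdf15* was among them at a log2 difference of 2.36 (adjusted p 0.0144). The same-numbered libraries had correlations of 0.23, −0.02 and 0.24 in their deviations from the group means over 1877 genes. Between libraries of unlike number the correlations ran from −0.28 to 0.086. These values did not settle whether the numbers are pairs, and the main fit did not take them as pairs. The paper names a pairwise two-tailed t test for these areas and does not say what was paired. Replicates 1 and 3 correlated best with their own number and replicate 2 did not. The block changed no other call among the members, and added 2 calls among the fibroblast markers and 1 among those of cardiomyocytes, and called *Atf2*. *Gdf15* ran from 2.05 to 2.95 when 1 library was left out, and from 1.82 (limma-trend) to 2.95 over 13 alternatives, and 2 of these called it. filterByExpr removed it and *Ppp1r15a*, which gives no value there. With no filter its adjusted p was 0.0506. *Cebpg* ran from −0.015 to 1.18 and *Ppp1r15a* from −0.29 to 1.13 when 1 library was left out, and *Ppp1r15a* was −0.024 after thinning. *Atf4* (0.30 to 0.83), *Atf5* (0.54 to 1.88) and *Cebpb* (−0.82 to −0.03) kept their direction in 14 of 14 alternatives, uncalled. Of the members tested, 0 were without overlap with RLE factors, 2 with library size alone, and 1 to 2 when 1 library was left out. The share of all genes tested is given for the main fit only, and groups separate more easily with 1 library fewer. These counts are therefore not read as a result about the members. The list values without Atf3 high replicate 2, and those of the eIF2 list without *Eif2a* and *Eif2d*, were added after seeing the data. The cause of these changes was not tested. Depth limits *Fgf21* and *Ddit3* to counts of a few UMIs, and the other members to 33 to 177 UMIs over 6 libraries.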
